A study of Mus musculus with 2 samples.

Results

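*Pdcd1*, *Ctla4*, *Havcr2*, *Lag3*, *Tigit*, *Cd160* and *Entpd1* encode inhibitory receptors of T and NK cells, and were taken by symbol from the gene list of both libraries. They are 7 of 33696 listed genes, all 7 symbols were found, and each is listed once. The libraries were made from subcutaneous tumors of CT26, a mouse colon carcinoma line, grown in male BALB/c mice of 6 to 8 weeks. The UT mice were left untreated. The BUP-treated mice received BUP-Gel, in which the local anesthetic bupivacaine (BUP, 40 mg/kg) is loaded into a hydrogel. Tumors of 3 mice were pooled in each group, and live CD45+ and CD45- cells were sorted and mixed, at 4 parts to 1 part by the sample labels and 3 parts to 1 part by the study's methods. Each group is therefore 1 library, the groups could not be tested against each other, and cells and the pooled mice are not replicates. The comparisons ask how these receptors were distributed over the cells of the tumor and whether their levels differed after BUP-Gel. From its single-cell data the study reported lower *Ctla4* in every T cell cluster of BUP-treated tumors. It also used flow cytometry of PD-1, TIM-3 and CTLA-4. There it reported fewer CD8 T cells with PD-1 but not TIM-3, no significant change in those with both, and more CD4 T cells with CTLA-4.

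Inhibitory receptors appear on T cells after antigen is recognized and restrain the activated cell. PD-1 (*Pdcd1*) recruits phosphatases to the antigen receptor when it binds PD-L1 or PD-L2, and CTLA-4 (*Ctla4*) takes CD80 and CD86 away from the costimulator CD28. TIGIT (*Tigit*) binds CD155 (*Pvr*), CD160 (*Cd160*) binds HVEM (*Tnfrsf14*), LAG-3 (*Lag3*) binds MHC class II, and TIM-3 (*Havcr2*) has galectin-9 (*Lgals9*) among its ligands. CD39 (*Entpd1*) differs in kind, being an ectoenzyme that breaks down extracellular ATP on the path to adenosine. Persistent co-expression of several of them is known from dysfunctional CD8 T cells of tumors. *Ctla4* and *Tigit* are also typical of regulatory T cells, *Cd160* of NK cells, and *Havcr2* and *Entpd1* of myeloid cells.

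In the GRCm39 annotation *Ctla4* (ENSMUSG00000026011) lies on chromosome 1 from 60926159 to 60954991 on the plus strand, and *Pdcd1* (ENSMUSG00000026285) on the same chromosome from 93966027 to 93980312 on the minus strand. *Tigit* (ENSMUSG00000071552) lies on chromosome 16 from 43469100 to 43484509, minus strand, and *Lag3* (ENSMUSG00000030124) on chromosome 6 from 124881320 to 124888765, minus strand. *Havcr2* (ENSMUSG00000020399) lies on chromosome 11 from 46345673 to 46374149, plus strand. *Cd160* (ENSMUSG00000038304) lies on chromosome 3 from 96706079 to 96736667, minus strand, and overlaps *Pdzk1* on the other strand. *Entpd1* (ENSMUSG00000048120) lies on chromosome 19 from 40600810 to 40731585, plus strand, and overlaps *Gm50132* on the same strand, so reads in the shared part could be counted for either.

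RefSeq promoter windows, 250 bases before to 50 after the annotated start in build GRCm38.p6, were matched for 6 of the 7 genes in 8 windows. The windows below are those of the 3 members with NFAT core letters that were high together in T-like cells, and of *Havcr2*, whose distribution included myeloid cells. Capitals mark GGAAA on either strand, the core letters bound by NFAT factors, which act after antigen receptor signals.
*Pdcd1*, chr1:94052504-94052803, minus strand: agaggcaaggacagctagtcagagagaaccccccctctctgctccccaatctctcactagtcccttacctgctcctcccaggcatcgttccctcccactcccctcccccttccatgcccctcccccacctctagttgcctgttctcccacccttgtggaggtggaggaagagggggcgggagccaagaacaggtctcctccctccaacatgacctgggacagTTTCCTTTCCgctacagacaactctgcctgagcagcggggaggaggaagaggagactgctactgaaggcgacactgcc
*Ctla4*, chr1:60908775-60909074, plus strand: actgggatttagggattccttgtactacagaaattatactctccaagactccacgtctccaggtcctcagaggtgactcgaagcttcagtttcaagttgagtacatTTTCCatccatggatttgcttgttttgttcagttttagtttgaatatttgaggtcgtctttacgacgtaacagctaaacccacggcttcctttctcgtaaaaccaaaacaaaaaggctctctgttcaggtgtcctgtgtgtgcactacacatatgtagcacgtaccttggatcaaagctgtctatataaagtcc
*Tigit*, chr16:43664135-43664434, minus strand: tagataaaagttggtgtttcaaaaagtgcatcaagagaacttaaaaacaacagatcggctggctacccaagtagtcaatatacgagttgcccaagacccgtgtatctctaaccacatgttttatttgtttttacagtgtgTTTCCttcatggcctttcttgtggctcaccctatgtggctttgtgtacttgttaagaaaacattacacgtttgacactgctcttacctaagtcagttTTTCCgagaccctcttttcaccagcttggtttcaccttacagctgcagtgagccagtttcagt
*Havcr2*, chr11:46454681-46454980, plus strand: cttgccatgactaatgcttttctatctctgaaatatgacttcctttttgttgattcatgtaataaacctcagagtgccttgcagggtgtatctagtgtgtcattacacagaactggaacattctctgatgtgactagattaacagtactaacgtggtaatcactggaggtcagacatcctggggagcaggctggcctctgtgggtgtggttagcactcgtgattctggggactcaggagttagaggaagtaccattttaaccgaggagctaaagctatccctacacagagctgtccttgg
The letters occurred 2 times in the *Pdcd1* window, starting 28 and 23 bases before the start, 1 time in that of *Ctla4* and 2 times in that of *Tigit*, and the *Havcr2* window held none. Of all 32851 windows, 61.3% held these letters, so their presence does not set the members apart. The *Havcr2* window held 1 match to TGANTCA (AP-1, in 7.81% of all windows) and 1 to TGTGGT (RUNX, in 16.8%), and the *Tigit* window held 1 RUNX match. All motifs were searched on both strands, and no match overlapped another. A match of letters is a description and was not tested for binding.

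Cells were clustered without the members, and the members' unique molecular identifiers (UMIs, 1 per captured RNA molecule) were summed over the cells of a class and divided by all UMIs of the class, per 1000000 (CPM). Names end in -like, because clusters were named from marker transcripts. Of 13939 cells kept (7163 UT and 6776 BUP-treated, medians of 8430 and 10420 UMIs), 252 and 412 were CD8 T-like, 129 and 223 cycling CD8 T-like, 58 and 43 regulatory T-like, 15 and 8 gamma-delta T-like, 333 and 253 NK-like and 62 and 62 cycling NK-like in the UT and BUP-treated library. CD8 T-like cells held *Cd3e* at 1458 CPM (UT) and 1460 CPM (BUP-treated), and *Cd8a* at 974 and 910 CPM. NK-like cells held *Ncr1* at 905 and 821 CPM but *Cd3e* at 11.9 and 10.0 CPM, and their fixed marker *Klra8* was nearly absent (0.641 and 0 CPM). Regulatory T-like cells held *Foxp3* at 438 and 232 CPM, and gamma-delta T-like cells *Il17a* at 1811 and 2498 CPM. A further 249 UT and 197 BUP-treated lymphocytes stayed unnamed by their leading genes, and 273 and 265 cells carried both T and macrophage genes. The libraries shared 68 kept barcodes. Intervals are exact at 95% (Poisson for a level, binomial for a share, conditional on the summed counts for a ratio) and cover counting error only, neither the mice nor the spread between cells.

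*Pdcd1*, the gene of PD-1, was highest in CD8 T-like cells. The UT library held 506 CPM (interval 475 to 538) and the BUP-treated library 484 CPM (459 to 511). Cycling CD8 T-like cells followed at 463 and 436 CPM. Of all *Pdcd1* UMIs of the kept cells, 36.1% lay in the CD8 T-like and 29.0% in the cycling CD8 T-like class. Regulatory T-like cells held 163 and 120 CPM, and gamma-delta T-like cells 171 and 136 CPM, which rest on 10 and 5 UMIs, and the intervals of these last 2 classes overlap. NK-like cells held little *Pdcd1*, at 4.81 and 3.19 CPM, against 0.274 and 0.838 CPM in tumor cells marked by *Ogn* and *Aspn*. Migratory DC-like cells, which carry antigen to lymph nodes, were at 83.3 and 133 CPM, and per 100 UMIs of *Cd3e* they held 220 UMIs of *Pdcd1*, against 33.8 in CD8 T-like cells. Their log2 ratio of BUP-treated over UT was 0.67 (0.13 to 1.23). T cell markers were also higher in these BUP-treated cells, with *Cd3e* at 10.6 and 87.4 CPM, *Cd3d* at 10.6 and 55.9 CPM and *Cd8b1* at 3.54 and 75.1 CPM, and their part in the *Pdcd1* ratio was not tested.

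*Ctla4*, the gene of CTLA-4, was highest in regulatory T-like cells. There UT cells held 1394 CPM (1217 to 1590) and BUP-treated cells 1095 CPM (920 to 1295), from 223 and 137 UMIs. CD8 T-like cells held 352 and 269 CPM and cycling CD8 T-like cells 307 and 161 CPM. The interval of the CD8 T-like class overlaps that of the unnamed lymphocytes. Only the regulatory T-like class lay above the CD8 T-like class, and its intervals did not overlap those of any other class. NK-like cells came next, with 136 CPM (UT) and 109 CPM (BUP-treated). Over both libraries the NK-like cells held 665 *Ctla4* UMIs and 59 *Cd3e* UMIs, whereas CD8 T-like cells held 20.8 *Ctla4* UMIs per 100 of *Cd3e*. cDC1-like cells, the dendritic cells that cross-present antigen, were at 45.7 and 39.7 CPM with *Cd3e* at 10.2 CPM over both libraries.

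*Tigit* had the same order as *Ctla4* among the leading classes. Regulatory T-like cells held 400 and 416 CPM (UT and BUP-treated), CD8 T-like cells 287 and 272 CPM and cycling CD8 T-like cells 207 and 189 CPM, with no overlap of the intervals of the summed libraries. NK-like cells held 76.9 and 75.2 CPM and cycling NK-like cells 77.5 and 51.4 CPM, which overlap. Gamma-delta T-like cells held no *Tigit* UMI, where 3 UMIs would be 51.3 CPM (UT) and 81.4 CPM (BUP-treated) and the exact intervals reach 63.0 and 100.1 CPM. The same holds there for *Havcr2*, *Lag3* and *Entpd1*.

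*Lag3*, the gene of the MHC class II receptor LAG-3, was highest in CD8 T-like cells, at 439 and 357 CPM (UT and BUP-treated). Cycling CD8 T-like cells held 297 and 245 CPM and regulatory T-like cells 263 and 192 CPM, whose intervals overlap. The CD8 T-like classes held 33.8% (non-cycling) and 20.4% (cycling) of all *Lag3* UMIs. NK-like cells were at 78.8 and 82.9 CPM. pDC-like cells, the dendritic cells that make type I interferon, held 58.0 and 93.4 CPM from 21 UMIs in each library, and their interval over both libraries overlaps that of the NK-like cells. Myeloid cells led by *Ctsk* and also marked by *Cd209a* held *Lag3* at 10.2 and 49.7 CPM, from 8 and 35 UMIs. They also held more T cell transcripts in the BUP-treated library, with *Cd3e* at 20.4 and 45.4 CPM, *Cd3d* at 12.8 and 61.0 CPM and *Cd8a* at 6.39 and 25.5 CPM, whose part was not tested.

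*Cd160* was found in both CD8 T-like and NK-like cells, which held 26.6% and 17.4% of its UMIs. CD8 T-like cells held 138 and 121 CPM and NK-like cells 66.6 and 86.6 CPM. Cycling CD8 T-like cells held 93.1 and 53.9 CPM, and cycling NK-like cells 127 and 45.0 CPM, the latter from 80 and 28 UMIs. Both cycling classes were thus lower in the BUP-treated library. The cycling NK-like class also held T cell transcripts, with *Cd3e* at 114 and 141 CPM and *Cd8b1* at 33.2 and 88.3 CPM, whose part was not tested. The intervals of the cycling NK-like, NK-like and cycling CD8 T-like classes overlap over both libraries. Regulatory T-like cells held 0 and 1 UMI of *Cd160*.

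*Havcr2*, the gene of TIM-3, was shared between CD8 T-like and myeloid cells. CD8 T-like cells were highest with 282 and 313 CPM, then cycling CD8 T-like cells with 212 and 226 CPM and cDC1-like cells with 188 and 212 CPM, and the intervals of the last 2 classes overlap. Monocyte-like cells held 101 and 120 CPM, inflammatory macrophage-like cells 94.6 and 97.5 CPM and C1q macrophage-like cells 66.2 and 69.4 CPM. These myeloid classes hold few T cell transcripts, with *Cd3e* at 3.60 CPM in inflammatory macrophage-like and 8.13 CPM in C1q macrophage-like cells. The inflammatory and C1q macrophage-like classes together held more *Havcr2* UMIs than the CD8 T-like class, at 17.7% and 13.9% of the total against 14.6%. NK-like cells held 93.2 and 62.0 CPM, and neutrophil-like cells 11 and 6.33 CPM.

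*Entpd1*, the gene of the ectoenzyme CD39, was highest in neutrophil-like cells. They held 712 CPM (UT) and 748 CPM (BUP-treated), and 65.7% of 623 and 68.1% of 427 cells had an *Entpd1* UMI at their own depth (medians of 1887 and 2129 UMIs). Thinning to 2000 UMIs left out 341 and 198 shallower cells, and 67.0% and 72.1% of the remaining 282 and 229 had one. Cells with both neutrophil and macrophage markers held 383 and 326 CPM, cDC1-like cells 291 and 199 CPM and CD8 T-like cells 211 and 203 CPM. Inflammatory macrophage-like cells held 144 and 125 CPM and C1q macrophage-like cells 145 and 160 CPM. By number of UMIs, the C1q and inflammatory classes held 19.8% and 16.1% of all *Entpd1* UMIs, and neutrophil-like cells 11.7%. The T-like and NK-like classes held the smaller part of this member, with 6.40% in CD8 T-like cells and 2.33% in NK-like cells.

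**Figure D1:**
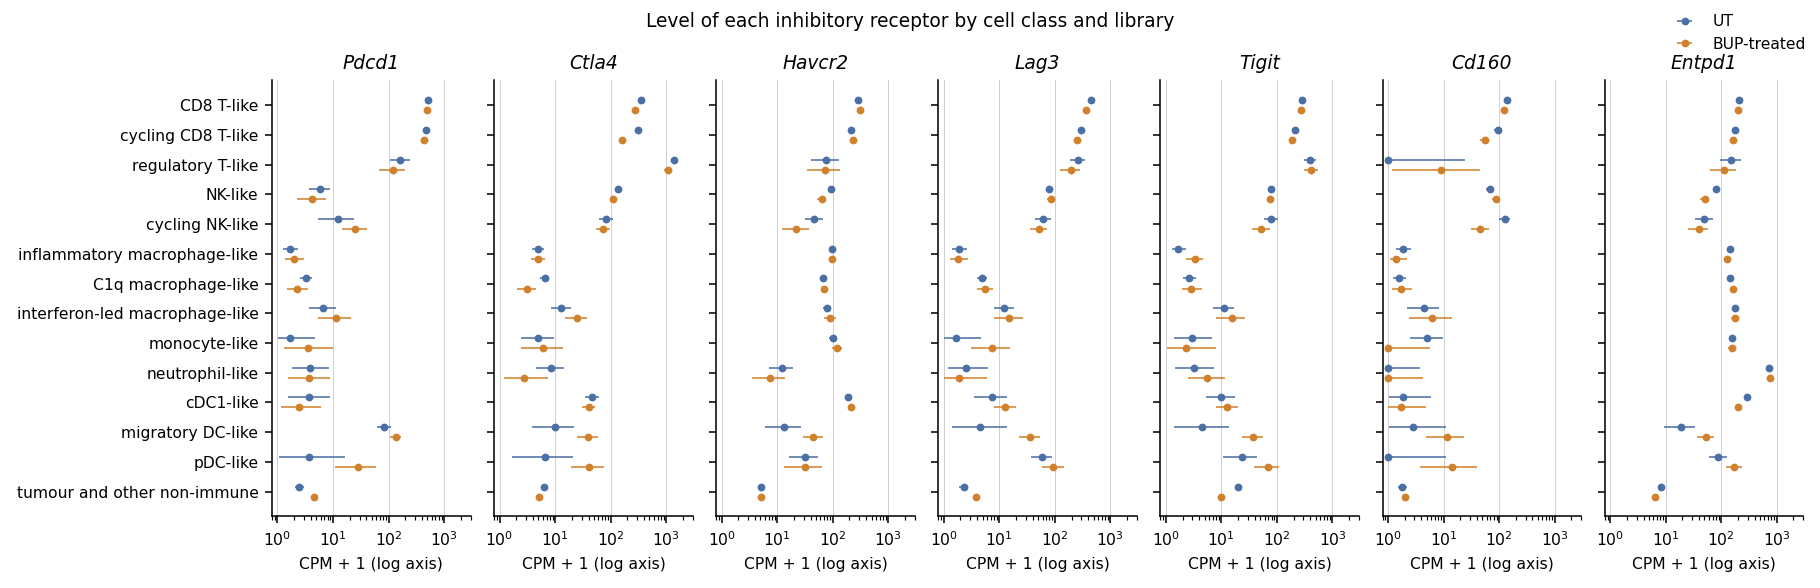
Levels of the 7 inhibitory receptors in 14 cell classes, as CPM + 1 on a log axis, for the UT (blue) and BUP-treated (orange) library. Bars are exact 95% Poisson intervals. *Pdcd1*, *Lag3* and *Tigit* peak in the T-like classes, *Havcr2* extends to macrophage-like and cDC1-like cells, and *Entpd1* peaks in neutrophil-like cells at 712 and 748 CPM.

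Shares of cells followed the levels. After each cell was thinned to 2000 UMIs, *Pdcd1* was found in 59.1% of 247 UT and 56.6% of 399 BUP-treated CD8 T-like cells. *Lag3* was found in 52.2% and 48.9%, *Tigit* in 46.2% and 42.4%, *Ctla4* in 47.4% and 35.6%, *Havcr2* in 38.9% and 38.8%, *Entpd1* in 30.8% and 34.1% and *Cd160* in 19.4% and 18.0%. The *Ctla4* shares have intervals of 41.0% to 53.8% and 30.9% to 40.5%, which do not overlap, whereas those of the other 6 members overlap. At their own depth (medians of 6985 and 6069 UMIs) the *Pdcd1* shares were 88.1% and 84.2% and the *Ctla4* shares 76.2% and 67.5%. As background, in the *Ogn* and *Aspn* tumor cells, which should lack these genes, each member was found in at most 1.66% of thinned UT and 1.06% of thinned BUP-treated cells (medians of 13881 and 14052 UMIs before thinning). The *Pdcd1* shares of NK-like cells, 1.25% and 0.826%, lie below these limits, which are the highest of any member and not those of *Pdcd1*. At their own depth 0.394% and 0.723% of these tumor cells held *Pdcd1*.

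BUP-treated and UT CD8 T-like cells were close in most members. None of the 7 members passed 1.5-fold in either direction, among the 3745 genes with at least 200 UMIs in the class, of which 3.23% did. *Ctla4* was 0.39 lower on the log2 scale in the BUP-treated library (log2 ratio -0.39, interval -0.54 to -0.24), and *Lag3* was 0.30 lower (log2 ratio -0.30, -0.43 to -0.17). These are the members whose intervals left out 0 in this class. Regulatory T cell markers were lower as well, with *Cd4* at 14.2 and 4.33 CPM, *Foxp3* at 5.07 and 0.721 CPM, *Il2ra* at 104 and 50.8 CPM and *Ikzf2* at 282 and 249 CPM, and their part was not tested. After thinning to 2000 UMIs the log2 ratio of *Ctla4* was -0.70, which put 1 member past 1.5-fold. *Pdcd1* (log2 ratio -0.06), *Tigit* (-0.08), *Entpd1* (-0.05), *Cd160* (-0.20) and *Havcr2* (0.15) had intervals that include 0. The median log2 ratio was -0.08 over the 7 members and -0.05 over all genes of the class. A sub-cluster of 78 cells with 9 UT and 69 BUP-treated cells, led by *Trbv13-1* and *Trav3-1*, was left out in turn, which gave -0.34 for *Ctla4*.

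Cycling CD8 T-like cells, which express *Mki67* at 805 and 861 CPM, showed larger differences in *Ctla4* and *Cd160*. *Ctla4* and *Cd160* passed 1.5-fold, 2 of 7 members, against 3.96% of 3661 genes in the class. When mean log-normalized expression per cell was compared, no member passed, with -0.51 for *Ctla4* and -0.23 for *Cd160*. *Ctla4* was at 307 CPM (UT) and 161 CPM (BUP-treated), a log2 ratio of -0.93 (interval -1.12 to -0.74). Of the regulatory T cell markers, *Cd4* (32.3 and 5.86 CPM), *Il2ra* (126 and 55.8 CPM) and *Foxp3* (12.8 and 9.37 CPM) were also lower in these BUP-treated cells and *Ikzf2* was higher (279 and 370 CPM), and their part was not tested. UT cells held *Cd160* at 93.1 CPM and BUP-treated cells at 53.9 CPM (log2 ratio -0.79, interval -1.13 to -0.45). *Lag3* had a log2 ratio of -0.28 (-0.45 to -0.10). *Pdcd1* (-0.08), *Havcr2* (0.09), *Tigit* (-0.13) and *Entpd1* (-0.13) had intervals that include 0. The median log2 ratio was -0.13 over the members and -0.05 over all genes of the class. Few cells carried much of the *Ctla4* signal of UT, where 5 of 129 cells held 25.8% of the UMIs and the highest held 51.

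In NK-like cells *Havcr2* and *Entpd1* passed 1.5-fold, 2 of the 6 members with at least 200 UMIs, against 2.69% of 4017 genes. *Havcr2* was at 93.2 and 62.0 CPM (log2 ratio -0.59, interval -0.89 to -0.29), which is just past the threshold. *Entpd1* was at 79.8 and 49.2 CPM (log2 ratio -0.70, -1.04 to -0.37). Of the *Havcr2* UMIs, 5 cells held 33.0% in the UT and 48.5% in the BUP-treated library. *Ctla4* was also lower, with a log2 ratio of -0.33 (-0.56 to -0.09), and *Cd160* was higher, with a log2 ratio of 0.38 (0.09 to 0.67). *Tigit* (-0.03) and *Lag3* (0.07) had intervals that include 0, and the median was -0.18 over these members and -0.06 over all genes of the class. Because *Havcr2* lay so near the threshold, the count of members past 1.5-fold in NK-like cells was 1 under 7 of the alternative settings, and it was 0 when mean log-normalized expression per cell was compared, which gave -0.079 for *Havcr2* and -0.18 for *Entpd1*. The MHC class II genes *H2-Aa*, *H2-Ab1* and *H2-Eb1*, which mark antigen-presenting cells, differed in the same direction in these cells, by log2 ratios of -0.77, -0.76 and -0.96, and their part in the lower *Havcr2* and *Entpd1* was not tested.

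**Figure D2:**
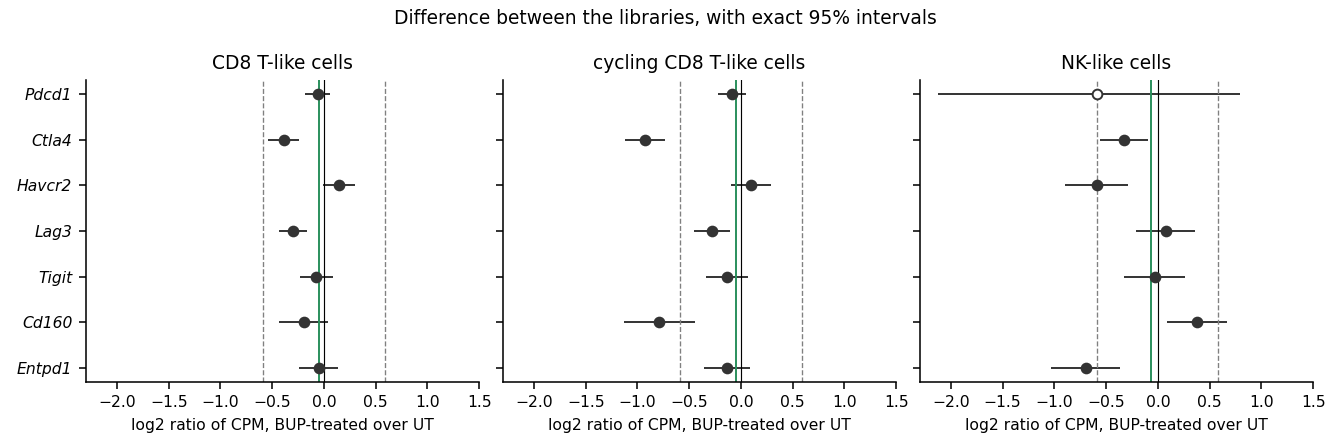
Log2 ratio of each member's CPM, BUP-treated over UT, in CD8 T-like, cycling CD8 T-like and NK-like cells, with exact 95% intervals that cover counting error only. Dashed lines mark 1.5-fold, the green line is the median of all genes with at least 200 UMIs, and the open point (*Pdcd1* in NK-like cells) has fewer UMIs. *Ctla4* lies below 0 in all 3 classes, at -0.39, -0.93 and -0.33.

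Smaller lymphocyte classes gave wide intervals. In regulatory T-like cells *Ctla4* had a log2 ratio of -0.35 (-0.67 to -0.03), and its 5 highest cells held 47.1% of the UT and 51.8% of the BUP-treated UMIs. *Foxp3*, the factor that defines these cells, was also lower in the BUP-treated library (438 and 232 CPM), as was *Il2ra* (731 and 400 CPM). Transcripts of other cell types differed in this class as well. *S100a8* was at 31.3 and 560 CPM, *C1qa* at 119 and 184 CPM and *Cd8a* at 25.0 and 71.9 CPM. The gamma-delta T cell gene *Scart1* was at 62.5 and 0 CPM. The part of these transcripts in the lower values was not tested. *Pdcd1*, *Lag3*, *Tigit*, *Havcr2* and *Entpd1* were below 200 UMIs there, and their ratio intervals include 0. In cycling NK-like cells *Cd160* was at 127 and 45.0 CPM, from 80 and 28 UMIs (log2 ratio -1.49, -2.17 to -0.86), opposite in sign to the non-cycling NK-like cells. It was below 200 UMIs in this class, where 6.21% of the 982 genes with at least 200 UMIs passed 1.5-fold. T cell transcripts differed there too, with *Cd8b1* at 33.2 and 88.3 CPM, and their part was not tested.

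In 4 non-cycling myeloid classes, the members with at least 200 UMIs (*Havcr2* and *Entpd1*, or *Entpd1* alone in neutrophil-like cells) stayed within 1.5-fold. This was 0 of 2 members in inflammatory macrophage-like cells (2.06% of 7264 genes passed), 0 of 2 in C1q macrophage-like cells (3.47% of 8117), 0 of 1 in neutrophil-like cells (10.1% of 1532) and 0 of 2 in cDC1-like cells (4.37% of 1923). *Entpd1* was lower in BUP-treated inflammatory macrophage-like cells (log2 ratio -0.21, -0.33 to -0.09) and cDC1-like cells (-0.55, -0.78 to -0.31) and higher in C1q macrophage-like cells (0.14, 0.03 to 0.25). The neutrophil marker *S100a8* was at 402 and 1347 CPM in these C1q macrophage-like cells, and its part was not tested. *Havcr2* had intervals that include 0 in the inflammatory (0.04), C1q (0.07), monocyte-like (0.25) and cDC1-like cells (0.17).

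Cycling C1q macrophage-like cells stood apart by their counts, in that 5 of 6 members passed 1.5-fold, all higher in the BUP-treated library, against 7.75% of 6286 genes. *Pdcd1* was at 20.6 and 99.8 CPM, *Tigit* at 16.8 and 55.5 CPM, *Lag3* at 24.0 and 67.0 CPM, *Ctla4* at 26.6 and 53.5 CPM and *Havcr2* at 68.8 and 106 CPM. T cell transcripts moved with them, since *Cd3e* was at 73.4 and 285 CPM and *Cd8a* at 48.8 and 186 CPM in the same cells. Per 100 *Cd3e* UMIs these cells held 32.4 of *Pdcd1*, 27.0 of *Lag3* and 20.8 of *Tigit*, near the 33.8, 26.8 and 19.1 of CD8 T-like cells. By this measure *Ctla4* (25.4 against 20.8), *Cd160* (12.9 against 8.78), *Havcr2* (58.7 against 20.6) and *Entpd1* (86.9 against 14.1) were higher than in CD8 T-like cells. The part of the T cell transcripts in the member ratios was not tested. The median log2 ratio was 1.25 over the 6 members and -0.04 over all genes of the class. *Entpd1* was at 115 and 126 CPM with an interval that includes 0 (log2 ratio 0.14).

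Sub-clusters of CD8 T-like cells differed in *Havcr2* and *Ctla4* more than in *Pdcd1*. These sub-clusters were made without the members, but from other genes of the same cells, so the values are a description with no test. The sub-cluster of 141 cells led by *Serpinb9b* and *Gzme*, with the granule protein gene *Prf1* among its leading genes, held *Havcr2* at 460 CPM (459 in UT and 460 in BUP-treated cells) and *Entpd1* at 251 CPM. The largest sub-cluster, of 303 cells led by *Cxcr6* and *Klrh1*, held *Havcr2* at 234 CPM, *Entpd1* at 186 CPM and *Ctla4* at 378 CPM. Its UT cells held *Ctla4* at 428 CPM and its BUP-treated cells at 334 CPM. *Pdcd1* ranged from 364 to 581 CPM over the 5 CD8 T-like sub-clusters. The sub-cluster led by *Trbv13-1* and *Trav3-1* held *Lag3* at 505 CPM and *Havcr2* at 156 CPM.

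The unnamed lymphocytes held sub-clusters with other combinations. A set of 46 cells led by *Ifng*, *Gm32647* and *Penk* held *Ctla4* at 564 CPM, *Lag3* at 543 CPM and *Tigit* at 481 CPM, with *Entpd1* at 45.3 CPM. Its *Pdcd1*, at 634 CPM (538 to 742), was the highest of all sub-clusters. This interval overlaps that of others, such as the CD8 T-like cells led by *Serpinb9b* (539 to 625). The set held *Cd3e* at 1346 CPM and *Cd8a* at 963 CPM. A set of 80 cells led by *Galnt18* and *St6galnac3*, with *Tox* among its leading genes and a median of 2751 UMIs, held *Ctla4* at 881 CPM (UT) and 278 CPM (BUP-treated) and *Entpd1* at 421 CPM over both. Over both libraries it held *Havcr2* at 526 CPM, *Cd3e* at 630 CPM and *Cd8a* at 658 CPM. These sets of 46 and 80 cells were CD8 T-like until their leading genes were read, and are not part of the CD8 T-like values. In the same way 246 cells (156 UT and 90 BUP-treated) led by *Clnk* and *Dscam* were NK-like at first and are not part of the NK-like values. They held *Ctla4* at 143 CPM over both libraries, *Havcr2* at 98.9 and 52.8 CPM and *Entpd1* at 107 and 132 CPM (UT and BUP-treated). *Cd160* was highest over all sub-clusters in 74 cells led by *Cd7* and *Xcl1*, with the stem-like factor gene *Tcf7* among their leading genes, at 255 CPM (207 to 311). The interval of the *Ifng*-led cells (163 to 285) overlaps it.

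The largest NK-like sub-clusters differed in these receptors. The 279 cells led by *Xcl1*, *Ncr1* and *Gzma* held *Tigit* at 148 CPM and *Cd160* at 136 CPM but *Havcr2* at 4.28 CPM. The 180 cells led by *Gzmg*, *Gzmc* and *Gzmf*, granzymes of activated NK cells, held *Tigit* at 36.0 CPM, *Cd160* at 33.9 CPM and *Havcr2* at 152 CPM. *Entpd1* went with *Havcr2*, at 31.2 CPM in the first and 99.6 CPM in the second set. In this second set *Havcr2* was at 182 and 111 CPM (UT and BUP-treated), and *Entpd1* at 126 and 64.7 CPM. The lower values of the BUP-treated NK-like class were also found within these cells, which made up 96 of 333 UT and 84 of 253 BUP-treated NK-like cells.

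**Figure D3:**
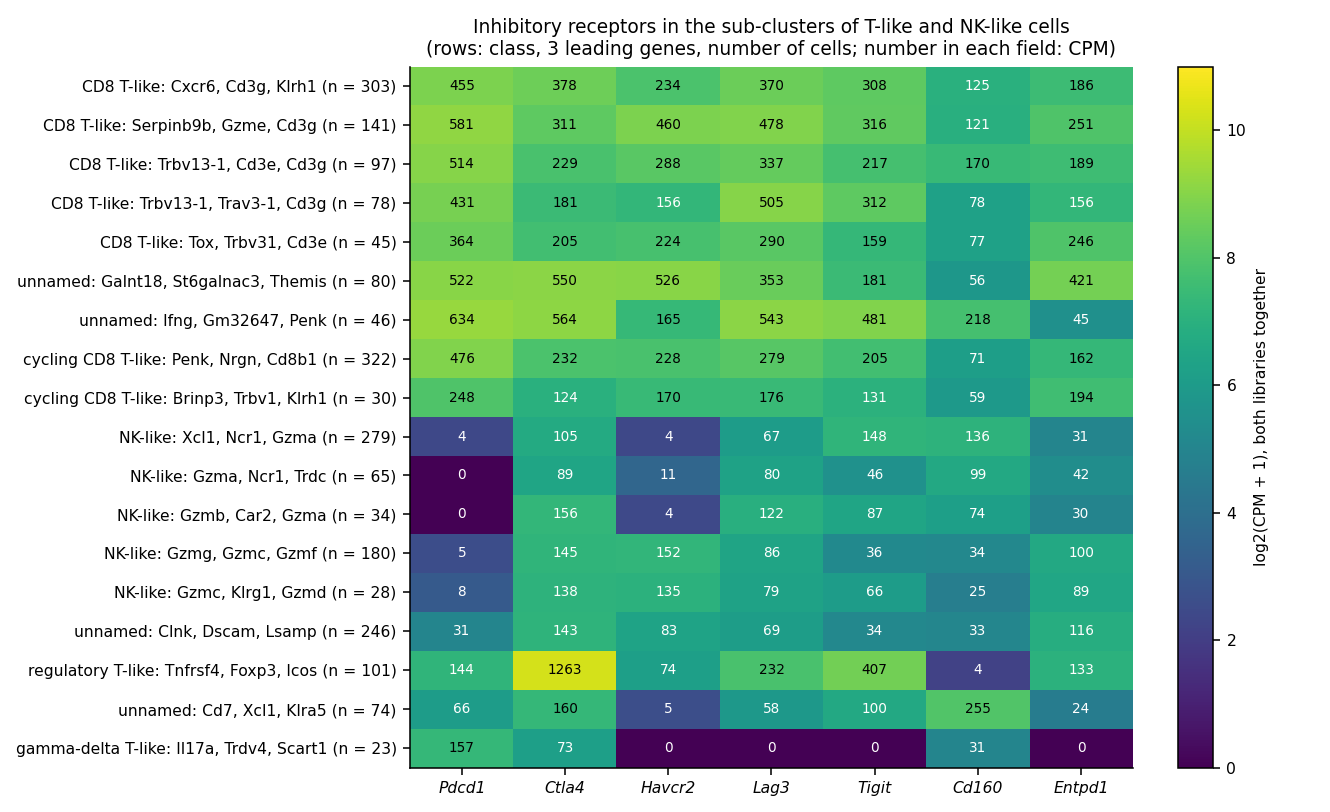
Levels of the 7 members in 18 sub-clusters of T-like, NK-like and unnamed lymphocytes, both libraries together. Color gives log2(CPM + 1) and the printed number the CPM, to be compared within a column. Among NK-like cells *Havcr2* is at 152 CPM in the *Gzmg*-led and 4.28 CPM in the *Xcl1*-led cells, and *Cd160* at 33.9 and 136 CPM.

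Most CD8 T-like cells held transcripts of several members at equal depth. Thinned to 2000 UMIs, they held a mean of 2.94 members in the UT and 2.74 in the BUP-treated library. The share with 3 or more members was 60.3% (53.9 to 66.5) and 56.1% (51.1 to 61.1), and cells with none made up 2.02% and 2.51%. *Pdcd1* without *Havcr2* was found in 34.0% and 34.6% of the cells, both in 25.1% and 22.1%, and *Havcr2* without *Pdcd1* in 13.8% and 16.8%. All of these intervals overlap between the libraries at this depth, which describes cells of 1 library each and is no test. At 4000 UMIs *Pdcd1* without *Havcr2* was found in 39.2% (32.6 to 46.0) and 29.2% (24.3 to 34.5) of the cells. Both genes were found in 44.2% and 50.6% at that depth. At their own depth both genes were found in 59.9% and 60.2% of the cells. Among cycling CD8 T-like cells the share with 3 or more members was 43.5% and 39.7%. Their shares with *Pdcd1* without *Havcr2* were 37.9% and 36.1% after thinning, and 31.8% and 18.4% at their own depth. In NK-like cells 40.8% and 41.3% held none of the members after thinning.

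**Figure D4:**
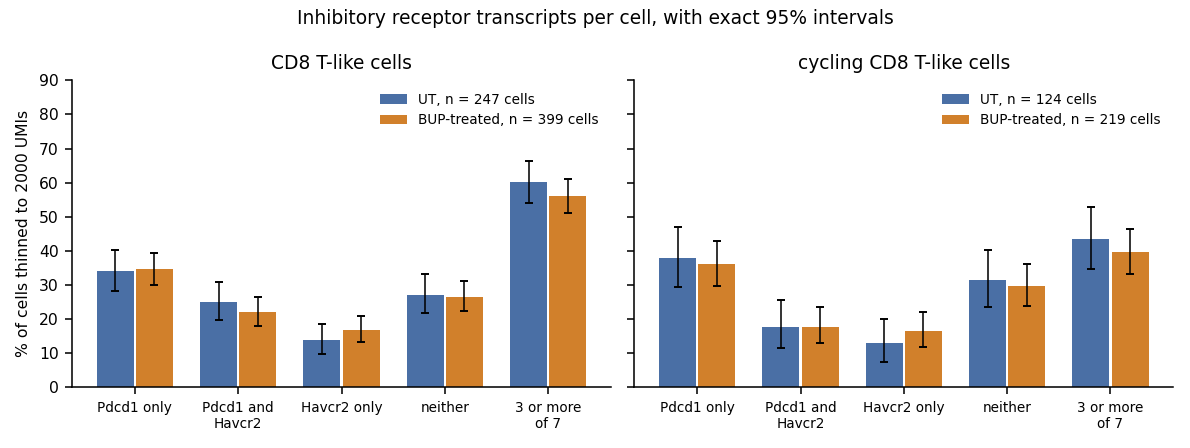
Percent of CD8 T-like and cycling CD8 T-like cells, each thinned to 2000 UMIs, with *Pdcd1* only, *Pdcd1* and *Havcr2*, *Havcr2* only, neither, and with 3 or more of the 7 members, in the UT (blue) and BUP-treated (orange) library. Bars carry exact 95% binomial intervals. The intervals overlap in every pair, for example 60.3% and 56.1% of CD8 T-like cells with 3 or more members.

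*Entpd1* was found in a larger share of the CD8 T-like cells with *Havcr2* than of those without it in both libraries. The shares were 39.6% of the 96 UT cells with and 25.2% of the 151 UT cells without *Havcr2*, after thinning. In the BUP-treated library they were 40.6% of 155 cells and 29.9% of 244. For *Pdcd1* the direction differed between the libraries, with *Entpd1* in 27.4% of UT cells with and 35.6% of those without it, against 35.0% and 32.9% in the BUP-treated library. In cycling CD8 T-like cells the *Entpd1* shares with and without *Havcr2* were 26.3% and 23.3% in UT and 28.0% and 20.8% in BUP-treated cells. All these shares describe cells of 1 library each and were not tested. Both genes were also found in myeloid cells. The macrophage gene *C1qa* was at 76.0 (UT) and 32.1 CPM (BUP-treated) in CD8 T-like cells, and its part was not tested.

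The T cell receptor segments differed between the libraries, which are pools of 3 mice each. *Trbv1* was found in 33.3% of UT and 1.21% of BUP-treated CD8 T-like cells, and *Trbv13-1* in 7.14% and 22.6%. Without the cells that held either segment, *Ctla4* had a log2 ratio of -0.36 in CD8 T-like and -0.75 in cycling CD8 T-like cells, and *Cd160* had -0.49 and -0.72. Other segments differed too and were not removed, as *Trbv2* (5.56% and 18.2%), *Trbv29* (3.17% and 12.6%) and *Trbv4* (8.33% and 1.46%) in CD8 T-like cells. In cycling CD8 T-like cells *Trbv19* was found in 26.4% and 7.62%. In cycling cells the 7 UT cells with *Trbv13-1* held *Ctla4* at 671 CPM, from 83 of the 504 UMIs of the class, and the 60 BUP-treated cells with this segment held 156 CPM. Clones were not measured. How much of the lower *Ctla4* belongs to the segments in each pool and how much to BUP-Gel cannot be told apart with 1 pool in each group.

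Other inhibitory receptors of T and NK cells formed a list of 12 genes, of which 6 had at least 200 UMIs in CD8 T-like cells, with 0 higher and 1 lower past 1.5-fold. Of all genes, 0.935% were higher and 2.30% lower past 1.5-fold in CD8 T-like cells, and 2.02% and 1.94% in cycling ones. These shares were 0.672% and 2.02% in NK-like, 2.14% and 1.33% in C1q macrophage-like, 0.922% and 1.14% in inflammatory macrophage-like and 1.14% and 3.22% in cDC1-like cells. The lower gene was *Lilrb4a*, at 151 and 77.9 CPM (log2 ratio -0.96), a gene that was highest in neutrophil-like cells at 2326 CPM. *Klrc1*, which encodes NKG2A, was at 679 and 582 CPM in CD8 T-like cells. *Cd96* and *Cd244a*, further receptors of T and NK cells, had log2 ratios of -0.06 and -0.02 with intervals that include 0. In NK-like cells 6 of the 12 were measured and none passed 1.5-fold, with *Klrg1* at 352 and 313 CPM. *Btla* was highest in cDC1-like cells, at 215 CPM over both libraries.

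The activating receptors *Cd28*, *Cd226* and *Icos* all had at least 200 UMIs in CD8 T-like cells. *Cd226*, which competes with TIGIT for CD155, was lower in the BUP-treated library, at 102 and 63.1 CPM in CD8 T-like cells (log2 ratio -0.70) and at 123 and 51.1 CPM in cycling CD8 T-like cells (-1.27). It was 1 of 3 genes past 1.5-fold in each class. *Cd28*, the receptor that CTLA-4 opposes, was at 258 and 228 CPM in CD8 T-like cells (log2 ratio -0.18). *Icos* was highest in regulatory T-like cells at 705 CPM and had a log2 ratio of -0.12 in CD8 T-like and -0.50 in cycling CD8 T-like cells.

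The ligand genes of the members mostly had their highest levels in other cells. *Cd274*, which encodes PD-L1, was highest in migratory DC-like cells at 1007 CPM and in neutrophil-like cells at 782 CPM, against 26.0 CPM in tumor and other non-immune cells. *Pdcd1lg2* (PD-L2) and *Cd80* were also highest in migratory DC-like cells, at 243 and 266 CPM, and *Lgals9* in interferon-led macrophage-like cells at 543 CPM. The lymphocytes held PD-1 ligand transcripts as well. NK-like cells were second for *Pdcd1lg2* at 102 CPM, and CD8 T-like cells held 62.1 CPM. *Cd274* was at 298 CPM in regulatory T-like, 119 CPM in NK-like and 70.8 CPM in CD8 T-like cells. *Pvr* (CD155) was at 46.6 CPM in migratory DC-like and 38.7 CPM in tumor and other non-immune cells. In C1q macrophage-like cells 4 of the 11 measured ligand and enzyme genes were higher past 1.5-fold in the BUP-treated library, against 2.14% of all genes, and none lower. They were *Cd80* (log2 ratio 0.67) and the LAG-3 ligand genes *H2-Aa* (0.73), *H2-Ab1* (0.75) and *H2-Eb1* (0.79). In NK-like cells 3 of 6 were lower, the same MHC class II genes, against 2.02% of all genes. *Nt5e*, which makes adenosine from the AMP that CD39 releases, was highest in fibroblast-like cells at 59.9 CPM and in inflammatory macrophage-like cells at 51.8 CPM.

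Of 15 transcription factors and stem-like genes of dysfunctional T cells, 8 were measured in CD8 T-like cells, with 1 higher and 0 lower past 1.5-fold. The higher gene was *Eomes*, at 44.6 and 81.1 CPM (log2 ratio 0.86, 0.50 to 1.24), and it was also higher in cycling CD8 T-like cells (0.78). *Tox*, a factor of T cell dysfunction, was at 564 and 456 CPM in CD8 T-like cells (log2 ratio -0.31) and at 519 and 512 CPM in cycling ones. In cycling CD8 T-like cells 3 of 10 were higher (*Eomes*, *Nr4a1* at 0.99 and *Nr4a3* at 0.73) and 1 was lower, the chemokine gene *Xcl1* (-0.78). *Xcl1* went the other way in NK-like cells, at 308 and 708 CPM (1.20), where it was the 1 gene of 10 past 1.5-fold. Among 10 signalling proteins of inhibitory receptors, 9 were measured in CD8 T-like cells and none passed, and *Sh2d1a*, an adaptor of SLAM family receptors, was the 1 that passed in cycling cells (0.70).

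The medians of the lists stayed near that of all genes in CD8 T-like cells, -0.05 on the log2 scale. They were -0.04 for the other inhibitory receptors, -0.20 for the ligands and enzymes, of which 1 of 4 measured genes was lower past 1.5-fold (*H2-Ab1*, -0.65), -0.18 for the activating partners, 0.03 for the transcription factors and -0.05 for the signalling proteins. In cycling CD8 T-like cells none of 6 other inhibitory receptors and none of 5 ligands passed. In NK-like cells none of 3 activating partners and none of 9 signalling proteins passed, and the median of the ligands was -0.46. C1q macrophage-like cells had medians of 0.46 for the ligands and 0.70 for the transcription factors, against -0.03 over all genes, with 5 of 9 factors higher in the BUP-treated library, among them the immediate early gene *Nr4a1* (0.92) and *Id3* (1.65). In inflammatory macrophage-like cells 1 of 13 ligand and enzyme genes was higher (*Adora2a*, which encodes an adenosine receptor, 0.74), and 2 of 8 factors were higher (*Nr4a2*, 0.82, and *Nr4a3*, 1.24). In cDC1-like cells *Lilrb4a* was the 1 of 2 measured inhibitory receptors past 1.5-fold (-0.70), and none of the ligands, factors or signalling proteins passed.

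The genes whose levels were most like those of a member were ranked by Pearson's r of log2(CPM + 10) over 42 points, each a class in 1 library with at least 30 cells, among 13306 genes. Points share libraries and depth, so r is a description. *Ctla4*, *Tigit* and *Lag3* were like each other: *Tigit* was the gene most like *Ctla4* (0.96) and *Lag3* (0.95), and *Cd27*, a costimulator, was most like *Tigit* (0.96). *Themis* (0.93), *Trac* (0.93) and *Cxcr6* (0.90) were most like *Pdcd1* together with *A430093F15Rik* and *Chst10*. *Cd160* was most like *Igsf5* (0.96) and the NK cell genes *Ctsw* (0.94) and *Klrc2* (0.93). *Havcr2* was most like *Lpxn* (0.87) and *Ubash3b* (0.84), and *Entpd1* most like ENSMUSG00000121501 (0.86), *Cd84* (0.86) and *Evi2b* (0.85), genes found across myeloid cells. *Entpd1* was the member least like the others, with r from 0.05 (*Cd160*) to 0.57 (*Havcr2*).

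*Tigit* was also found in tumor cells. The tumor and other non-immune class held 19.7% of all *Tigit* UMIs, against 6.18% of *Ctla4*, 3.397% of *Pdcd1* and 3.25% of *Lag3*. Tumor cells led by *Nppb*, with *Krt20* among their leading genes, held *Tigit* at 21.6 CPM (444 UT cells) and 12.2 CPM (681 BUP-treated cells), from 289 and 234 UMIs. These cells held *Cd3e* at 4.42 and 3.33 CPM, from 59 and 64 UMIs, *Ctla4* at 5.31 and 3.22 CPM and *Pdcd1* at 1.05 and 1.30 CPM. Per 100 *Cd3e* UMIs the whole tumor class held 154 of *Tigit*, against 19.1 in CD8 T-like cells, but 34.0 of *Pdcd1*, close to the 33.8 of CD8 T-like cells. *Ctla4* was also higher by this measure, at 55.9 against 20.8, and *Lag3* was close, at 27.5 against 26.8. Cycling tumor cells held *Tigit* at 31.6 and 19.96 CPM, with *Cd3e* at 7.43 and 48.2 CPM. The *Ogn* and *Aspn* tumor cells held 2.60 and 2.82 CPM, so *Tigit* was unevenly spread among tumor cells. When thinned to 2000 UMIs the *Krt20* and *Nppb* cells had a *Tigit* UMI in 4.29% and 1.33% of cells, against 0.414% and 0.731% of the *Ogn* and *Aspn* cells.

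**Figure D5:**
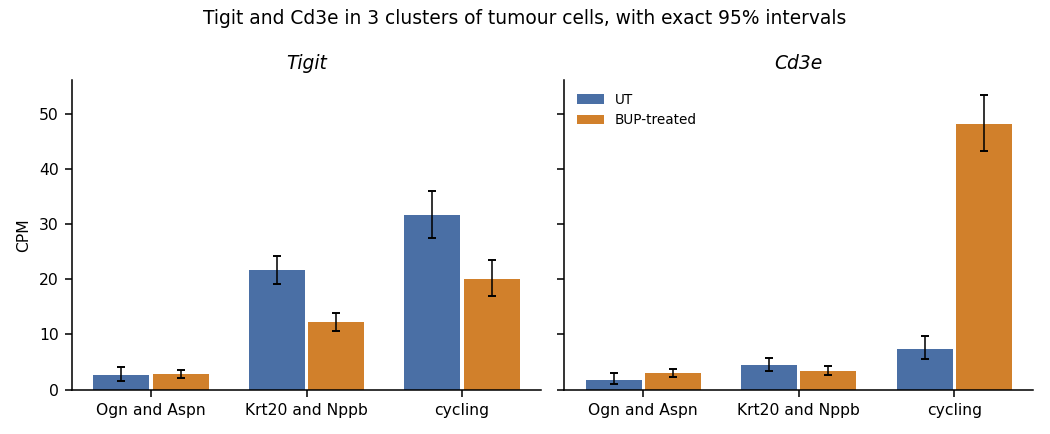
Levels (CPM) of *Tigit* and *Cd3e*, a defining T cell gene, in 3 clusters of tumor cells of the UT (blue) and BUP-treated (orange) library, with exact 95% Poisson intervals as bars. *Tigit* exceeds *Cd3e* in the *Krt20* and *Nppb* cells, at 21.6 and 12.2 CPM against 4.42 and 3.33 CPM, but not in the BUP-treated cycling cells.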

How the data were processed

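Each library was made with a 10x Genomics 5' v2 kit from the pooled tumors of 3 mice, so that the UT and the BUP-treated group are 1 library each. The authors aligned the reads and deposited raw UMI counts per gene and barcode; the submitters' processing notes name Cell Ranger 8.0.1, Seurat 5.0.1 and GRCm39. The members and gene lists were chosen with earlier results of these data known. The deposited counts held 83228442 UMIs in 7556 UT barcodes and 89918925 in 7221 BUP-treated barcodes. The cell filter asked for over 100 UMIs and a mitochondrial share below 20%. They were clustered with Seurat 5.3.0 in R 4.3.3 on 1989 variable genes, with the members and compared genes left out, 20 principal components, resolution 0.5 and no integration. Clusters with *Ptprc* in at least 30% of cells were clustered again, and the 4 T and NK clusters divided into 19 sub-clusters, a step added after the clusters were seen. Of 106 markers, 104 were found under their symbols. A sub-cluster whose 10 leading genes held more markers of another class, or that was shallow with none of its own, stayed unnamed. Doublets were kept in the main values: Scrublet, which called 0.447% of UT and 2.33% of BUP-treated cells and so had not worked in UT, was used only to rank cells. UMIs were summed per class and library. Ratios are described, with no test, against the share of all genes with at least 200 UMIs in the class that passed 1.5-fold. Shares were computed after each cell was thinned to 2000 UMIs. Interval code was tested on simulated data with Python 3.11.15, numpy 2.4.6 and scipy 1.17.1.

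The text names the 7 members in every class, genes of 5 lists (other inhibitory receptors, ligands and enzymes, activating partners, transcription factors and stem-like genes, signalling proteins) and the 5 genes most like each member. Sub-cluster leading genes, T cell receptor segments and *Tigit* in tumor cells were chosen after their values were seen. Alternatives were a stricter cell filter, resolution 1.0, 30 principal components, the members kept for clustering, leaving out the top 6% by Scrublet score, other thinning depths, scaling by the median ratio and mean log-normalized expression.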

Additional observations from a re-analysis of the deposited data

Results flagged for a closer look

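*Cd160* differed in direction between lymphocyte classes. It was lower in the BUP-treated library in cycling CD8 T-like cells (log2 ratio -0.79) and higher in NK-like cells (log2 ratio 0.38). Each group is 1 library, so the difference between the classes was not tested.

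*Tigit* was found in cells outside the compared classes, above its level in the *Ogn* and *Aspn* tumor cells. Of the *Krt20* and *Nppb* tumor cells, 34.0% of 444 in the UT library and 22.6% of 681 in the BUP-treated library held a *Tigit* UMI at their own depth (medians of 28147 and 26670 UMIs), where 2.25% and 2.20% held *Cd3e*. In the *Ogn* and *Aspn* tumor cells the *Tigit* shares were 3.35% and 3.42%, at medians of 13881 and 14052 UMIs. Cycling tumor cells held it in 48.3% and 37.2% of cells.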

How the results depend on the processing

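No paired analysis was possible because each group is 1 library and no result comes from a test. None of the results computed under the alternatives changed direction where its interval left out 0 in CD8 T-like, cycling CD8 T-like or NK-like cells: these 9 log2 ratios kept their sign in 97 of 97 alternatives, and all 30 ratios kept it in 282 of 301. Levels stayed within their interval in 407 of 450 alternatives. Thinning to 2000 UMIs moved the log2 ratio of *Ctla4* in CD8 T-like cells to -0.70, which made 1 member past 1.5-fold there, and that of *Entpd1* in NK-like cells to -1.45. Mean log-normalized expression per cell gave smaller ratios, of -0.51 for *Ctla4* and -0.23 for *Cd160* in cycling CD8 T-like cells and of -0.079 for *Havcr2* and -0.18 for *Entpd1* in NK-like cells, with 0 members past 1.5-fold in both classes. In NK-like cells 1 member passed under the stricter cell filter, resolution 1.0, 30 principal components, removal of the highest Scrublet scores, thinning, scaling by the median ratio and, chosen after seeing the data, with the unnamed sub-clusters put back. The share of CD8 T-like cells with 3 or more members was 95.2% (UT) and 91.0% (BUP-treated) at their own depth and 92.2% and 89.1% at 4000 UMIs, and that with both *Pdcd1* and *Havcr2* 59.9% and 60.2%, and 44.2% and 50.6%, so these shares follow depth. With a minimum of 50 UMIs, 9.10%, 9.396% and 7.94% of genes passed 1.5-fold in CD8 T-like, cycling CD8 T-like and NK-like cells. Of the 35 genes most like the members, 19 were shared with the UT library alone and 21 with log2(CPM + 1). Without cells with *Trbv1* or *Trbv13-1*, without the sub-cluster led by *Trbv13-1* and *Trav3-1* and without sub-clusters high in *S100a8*, all chosen after seeing the data, the *Ctla4* ratio stayed below 0. Regulatory and gamma-delta T-like cells are limited by their number, and no setting replaces a second pool of mice.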
